A study of Mus musculus with 13 samples.

Results

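Expression of 9 genes of fluid balance in the alveolus, the air sac of the lung, was compared between mouse lung after 5 days of high oxygen and lung in room air. They are the 3 subunit genes of the epithelial sodium channel (Scnn1a, Scnn1b and Scnn1g), the sodium pump subunit gene Atp1b1, the water channel genes Aqp1, Aqp4 and Aqp5, the chloride channel gene Cftr and the chloride loader gene Slc12a2. The members were the rows of the deposited count table that carry these symbols, and all 9 were found among its 32544 gene symbols. All 13 libraries came from whole lung of wild type (WT) male C57BL/6J mice bought at 7 weeks of age, for which the labels name no other treatment, with 7 libraries from normoxia (21% oxygen) and 6 from hyperoxia (80% oxygen). Lungs were perfused with cold buffer before freezing, and the libraries read the 3′ ends of polyadenylated transcripts (QuantSeq), so that levels are given as CPM, that is, counts scaled by library size with the TMM method, and were compared between conditions only and not between genes. Whole tissue was sampled, so that fewer cells of a type and less RNA per cell cannot be told apart.

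The alveolar surface is kept nearly dry by active salt transport. Sodium enters the epithelial cells from the air side through the epithelial sodium channel, is pumped out toward the blood by the sodium and potassium ATPase, and water follows along the osmotic gradient, in part through aquaporins. Chloride moves through CFTR, and the sodium, potassium and chloride cotransporter encoded by Slc12a2 loads chloride into the cell from the blood side. High oxygen injures both sides of the air and blood barrier, and leakage of fluid into the airspace is a known feature of that injury.

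Of the 9 genes, 3 rose in hyperoxia (Scnn1a, Atp1b1 and Slc12a2) and 1 fell (Aqp1), at an adjusted p under 0.05 in edgeR's quasi-likelihood test with Benjamini-Hochberg adjustment over all genes tested. All 9 passed the filter on low counts. Of the 12496 genes tested, 1473 rose (11.8%) and 1346 fell (10.8%), and this split moved to 1097 and 1729 with limma on the deposited log values and to 1179 and 1579 with library size alone. The same 4 genes changed in the same directions under both, and without hyperoxia replicate 1. Each count of a gene list below stands beside the shares of 11.8% and 10.8% over all genes. Without hyperoxia replicate 1, 1934 genes rose and 1699 fell of 12752 tested. The 4 changes were between 1.54-fold and 2.26-fold, and 0 of the 9 genes also passed the log2 fold change of 1.5 that the methods of the study require, which 194 genes passed upward and 294 downward. For Scnn1b, Scnn1g, Aqp4, Aqp5 and Cftr the test was not passed, with 95% intervals that hold a decrease as well as an increase.

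**Figure D1:**
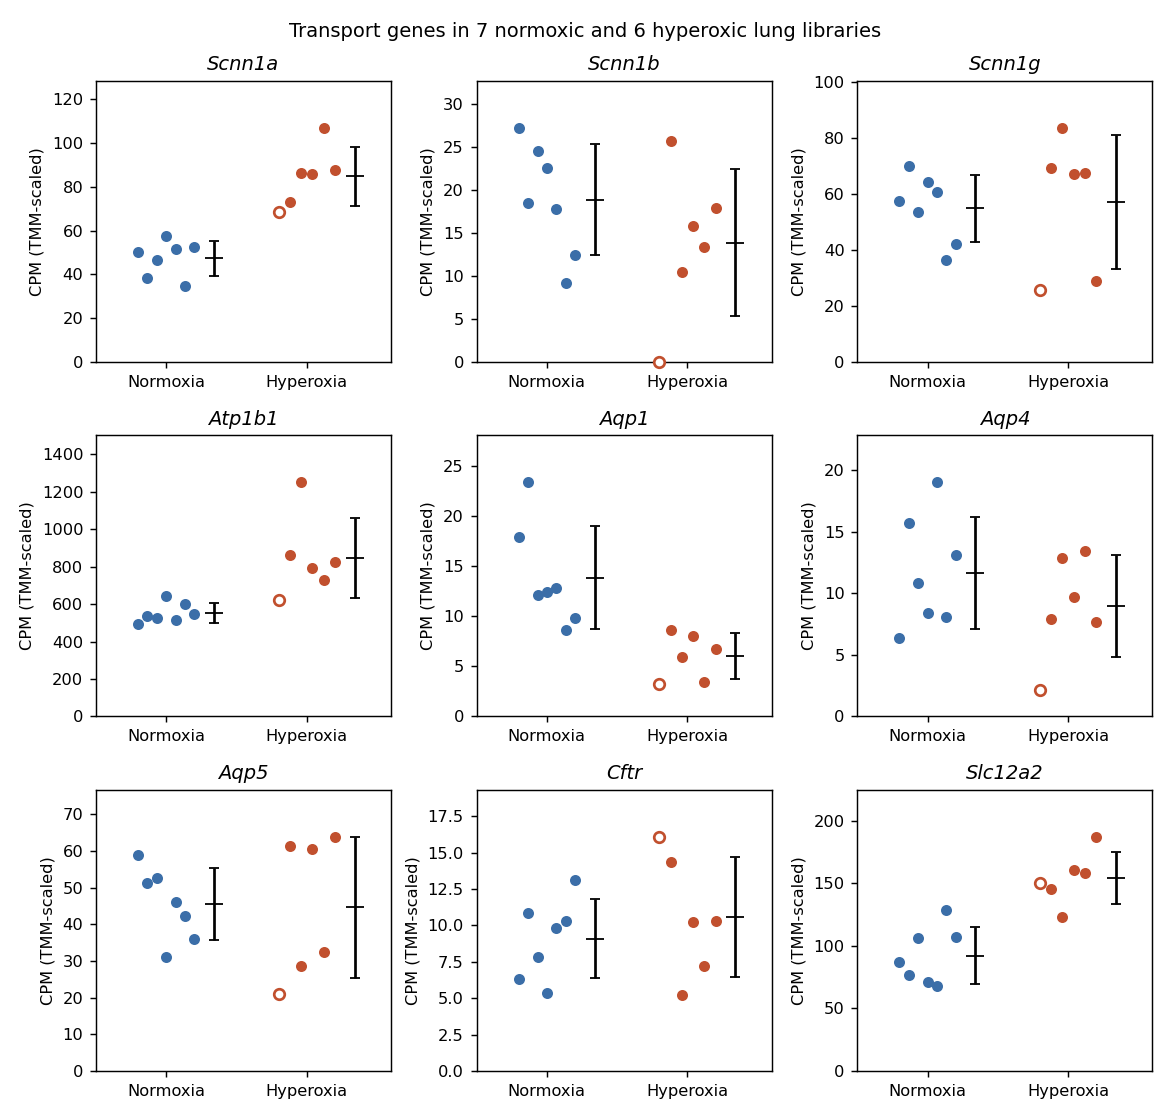
Levels of the 9 genes in CPM on linear axes that start at 0, with 1 point for each of the 7 normoxic and 6 hyperoxic libraries, bars at the mean and SD, and an open point for hyperoxia replicate 1. The Scnn1a points of the groups do not overlap, the Scnn1b point of hyperoxia replicate 1 lies at 0, and the hyperoxic Aqp5 points fall at 20.9 to 32.5 and at 60.6 to 63.9 CPM.

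Total counts ran from 1607111 to 4540288 per library, and a count of 3, taken as the floor, was worth between 0.656 and 1.84 CPM, which covers counting error only. The library of hyperoxia replicate 1 stood apart, with correlations of log2 CPM of 0.721 to 0.833 with the rest, against 0.854 to 0.967 among the other 12. It held 32.7 CPM of the surfactant gene Sftpc, 162 CPM of the club cell gene Scgb1a1 and 2.14 CPM of the ciliated cell gene Foxj1, against medians over the 6 hyperoxic libraries of 1627, 4475 and 56.4 CPM. Other markers of the same cells were highest there among the hyperoxic libraries, with 3536 CPM of the surfactant gene Sftpa1, 101.9 CPM of Lamp3 and 90.07 CPM of the ciliated cell gene Ccdc153. Some genes of other cells were also near 0, with 3.22 CPM of the endothelial Plvap and 1.07 CPM of the leukocyte gene Coro1a. In contrast, the endothelial Egfl7 (3335 CPM) and the leukocyte gene Ptprc (167.3 CPM) were highest there among the hyperoxic libraries. Among 14 endothelial markers this library held the lowest hyperoxic level of 6 and the highest of 2. Among 6 leukocyte markers it held the lowest of 5 and the highest of 1. Of the 12496 genes tested, this library held the lowest hyperoxic level of 4927 and the highest of 3617. Its RNA quality was not tested. For the 9 genes and the marker lists, values without this library are given where it moves a call or a count. The library names fall into letters B to M (5 normoxic and 3 hyperoxic) and O to S (2 normoxic and 3 hyperoxic), and what the letters mark was not given in the sources used here. The labels do not state that each library is a separate animal, in which case the p-values measure only the spread between these samples.

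The promoters of Atp1b1 and Aqp1 are shown because these genes moved in opposite directions and both have an entry in the RefSeq promoter set (GRCm38.p6). The 250 bases before each RefSeq start are printed 5′ to 3′ along the strand of the gene, and capitals mark the GC box, GGGCGG on either strand, a motif bound by Sp factors. The Atp1b1 window is chr1:164458356-164458605 on the minus strand and the Aqp1 window is chr6:55336049-55336298 on the plus strand. The Aqp1 window ends short of the gene start given below, 55336432, which is that of the GENCODE annotation.
Atp1b1: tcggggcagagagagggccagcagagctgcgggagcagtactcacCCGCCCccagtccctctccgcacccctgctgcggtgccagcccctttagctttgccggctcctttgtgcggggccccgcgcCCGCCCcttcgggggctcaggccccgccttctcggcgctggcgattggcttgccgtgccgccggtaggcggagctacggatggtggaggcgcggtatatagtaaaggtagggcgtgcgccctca
Aqp1: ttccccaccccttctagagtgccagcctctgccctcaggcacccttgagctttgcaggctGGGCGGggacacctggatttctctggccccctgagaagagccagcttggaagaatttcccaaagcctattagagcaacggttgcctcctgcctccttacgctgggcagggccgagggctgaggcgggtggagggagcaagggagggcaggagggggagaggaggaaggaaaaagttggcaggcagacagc

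The Atp1b1 window held 2 GC boxes, at 205 and 124 bases before the RefSeq start and both on the opposite strand. The Aqp1 window held 1, at 190 bases before its RefSeq start. A GC box stood in each of the 6 members with an entry (these and Scnn1b, Scnn1g, Aqp5 and Cftr), against 32.7% of all 32851 promoters in the set. The AP-1 element TGANTCA (in 6.75% of all promoters), the core of the antioxidant response element TGACNNNGC (10.2%) and the glucocorticoid receptor half-site AGAACA (16.1%), each searched on both strands, had no match in these 6 windows. The search covered these letters only, the matches found were all GC boxes, and of the 6 in the Cftr window 3 overlap in part.

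Scnn1a encodes the alpha subunit of the epithelial sodium channel, the subunit without which the channel conducts little current and without which newborn mice fail to clear lung liquid. Its level in normoxia was 34.6 CPM in the lowest library, 50.0 in the median and 57.5 in the highest, and in hyperoxia it was 68.6, 86.0 and 106.9 CPM. Every hyperoxic library therefore lay above every normoxic one, a separation upward that 5.6% of all genes tested showed. The means were 47.3 ± 8.12 CPM (SD, n = 7) and 84.7 ± 13.4 CPM (SD, n = 6), a log2 fold change of 0.84 (standard error, SE, 0.15, 95% interval 0.52 to 1.16, edgeR adjusted p = 0.000852), or 1.79-fold. An exact permutation test of the mean log2 CPM, two-sided and over all 1716 ways to divide 13 libraries into 7 and 6, gave p = 0.000583, the smallest it can give. The gene lies on chromosome 6 at 125320659 to 125344943 of GRCm38, plus strand, and no annotated gene overlaps it.

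Scnn1b and Scnn1g encode the beta and gamma subunits, which carry the channel to the membrane and raise its current, and neither passed the test. Scnn1b stood at 9.20 to 27.3 CPM in normoxia with a median of 18.5, and at 0 to 25.7 CPM in hyperoxia with a median of 14.7. The 0 is the library of hyperoxia replicate 1, whose count of 0 allows up to 1.61 CPM, and the groups overlapped. The log2 fold change was −0.42 (SE 0.46, 95% interval −1.40 to 0.56, edgeR adjusted p = 0.562) and −0.16 without that library. Scnn1g stood at 36.5 to 70.2 CPM in normoxia with a median of 57.5, and at 25.7 to 83.7 CPM in hyperoxia with a median of 67.4. Both the lowest and the highest library were hyperoxic, and the log2 fold change was 0.06 (SE 0.26, 95% interval −0.49 to 0.61, edgeR adjusted p = 0.899). The direction of the Scnn1g value changed with the setting, with −0.12 from limma on the deposited log values. Scnn1g and Scnn1b are neighbours on the plus strand of chromosome 7, at 121734479 to 121768475 and 121865038 to 121918514, with 96.6 kb between them, and Cog7 overlaps Scnn1b on the opposite strand without sharing exonic bases.

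Whether the subunits changed unequally was tested on the log2 ratio within each library, which does not depend on the scaling. The ratio of Scnn1a to Scnn1g rose from −0.20 ± 0.34 (SD, n = 7) to 0.68 ± 0.66 (SD, n = 6), a difference of 0.88 (exact permutation test, p = 0.00408, 0.0122 after Benjamini-Hochberg adjustment over the 12 ratios tested). The ratio of Scnn1a to Scnn1b rose by 1.77 (exact permutation test, p = 0.0035, adjusted 0.0122), and by 1.05 without hyperoxia replicate 1, where the Scnn1b count of 0 makes the ratio depend on the prior count of 2 (exact permutation p = 0.0101). The ratio of Scnn1b to Scnn1g differed by −0.88, which did not pass (exact permutation p = 0.17, adjusted 0.204). That ratio was −0.31 without hyperoxia replicate 1 (exact permutation p = 0.409), and it passed without hyperoxia replicate 6, at −1.24 (exact permutation p = 0.0152, unadjusted). The alpha subunit therefore rose relative to each of its partners, and whether the partners changed unequally depended on 1 library.

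**Figure D2:**
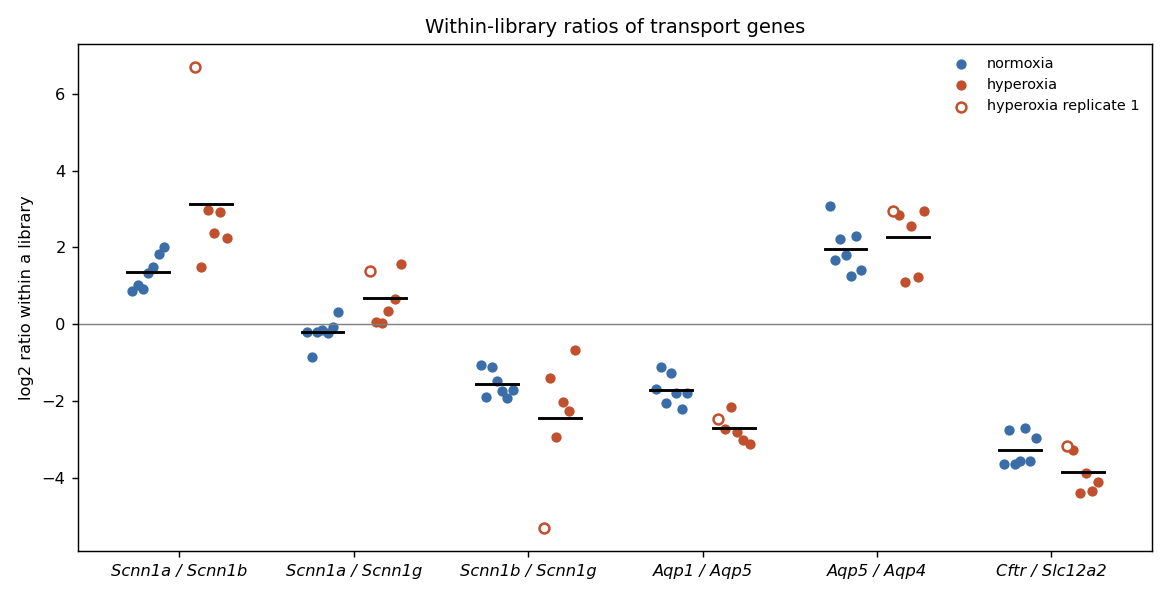
Log2 ratios within each library for 6 pairs of the genes, with 1 point for each of the 7 normoxic and 6 hyperoxic libraries, bars at the group means and an open point for hyperoxia replicate 1. The ratio of Scnn1a to Scnn1b reaches 6.70 and that of Scnn1b to Scnn1g −5.31 in hyperoxia replicate 1, and the ratio of Aqp1 to Aqp5 is lower on average in hyperoxia.

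Scnn1a and Aqp5 are both expressed in flat alveolar type 1 (AT1) cells, and the 15 markers of these cells were therefore set beside them. Of the 15, 2 rose (Akap5 and Lmo7) and 1 fell (Rtkn2), and 3 rose and 2 fell without hyperoxia replicate 1. The Rtkn2 call was lost on leaving out 9 of the 13 libraries, 1 at a time. Their median log2 fold change was 0.06 (−0.12 with limma on the deposited log values), against −0.03 over all genes tested (−0.16 with limma), and their summed level was 6699 to 7906 CPM in normoxia and 8475 to 10250 CPM in hyperoxia. Without Akap5 and Lmo7 the other 13 markers summed to 4986 to 5926 CPM in normoxia, with a median of 5418, and to 3952 to 5440 CPM in hyperoxia, with a median of 4671. Scnn1a rose relative to their mean log2 CPM by 0.83 (exact permutation p = 0.000583, adjusted 0.007), and this log2 ratio was at most −2.31 in normoxia and at least −2.10 in hyperoxia. The type 2 (AT2) cells that make surfactant also carry the sodium channel, and 10 of their 13 markers fell, among them Sftpc, Abca3 and Lamp3, and 0 rose at an adjusted p under 0.05 (edgeR), with a summed level of 16320 to 28010 CPM in normoxia and 4989 to 9385 CPM in hyperoxia, and 11 fell without hyperoxia replicate 1. Of 8 tested markers of the transitional cells that lie between the type 2 and type 1 states, 6 rose and 0 fell, with sums of 786 to 1138 and 2273 to 3282 CPM, and 9 of 9 tested rose without hyperoxia replicate 1. Krt8 and Krt19 did not pass with all 13 libraries (edgeR adjusted p = 0.131 and 0.0627). Lgals3 and Krt7 had the largest means in hyperoxia, at 1146 and 873.6 CPM, so the sum mostly shows these genes. The part of these cell types in the rise of Scnn1a was not tested beyond the type 1 ratio.

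Scnn1b was also set beside the markers of the airway. Of all genes tested, the one whose deviations from the condition means followed those of Scnn1b most closely over the 13 libraries was Scgb1a1, the secretoglobin of club cells, at r = 0.993 and at 0.966 without hyperoxia replicate 1, which is given as a description. The next were Zfyve21 at 0.989 and the ribosomal pseudogene Rps12-ps3 at 0.988. These are the top 3 of 12496 genes in libraries that share depth and composition, and no test was made on this ranking. Of 10 tested airway markers 5 fell, among them Scgb1a1, and 0 rose (edgeR), and 6 fell without hyperoxia replicate 1. Scgb3a2 did not pass with this library, which held 6.97 CPM of it (adjusted p = 0.0841), and fell by 1.01 on the log2 scale without it (edgeR adjusted p = 0.000829), while Foxj1 passed neither way. The summed level of the 10 was 14670 to 53370 CPM in normoxia and 303.4 to 10280 CPM in hyperoxia, with the lowest value in hyperoxia replicate 1. Scgb1a1 alone made up 91.65% to 96.48% of this sum in normoxia and 53.36% to 89.85% in hyperoxia, so the sum mostly shows that gene. The other 9 summed to 1226 to 2927 CPM in normoxia and 141.5 to 1044 CPM in hyperoxia. In hyperoxia replicate 1, 9 of the 10 markers were at their lowest hyperoxic level, and Ccdc153 was at its highest. Scnn1b is also expressed in airway epithelium, and the part of the airway share in its level was not tested.

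**Figure D3:**
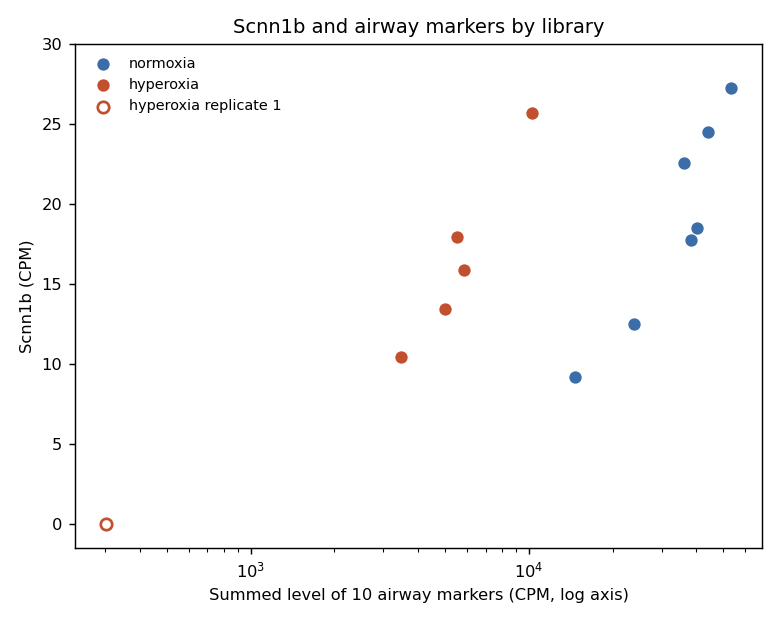
Scnn1b level (CPM, linear axis) against the summed level of 10 airway markers (CPM, log axis), with 1 point for each of the 7 normoxic and 6 hyperoxic libraries and an open point for hyperoxia replicate 1. The hyperoxic points lie to the left, at 303.4 to 10280 CPM of the markers against 14670 to 53370 CPM in normoxia, and hyperoxia replicate 1 holds the lowest value on both axes. Most of each sum is Scgb1a1, at 53.36% to 96.48%.

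Atp1b1 encodes the beta 1 subunit of the sodium and potassium ATPase, which the catalytic alpha subunit needs to leave the endoplasmic reticulum and reach the membrane. Its level was 491.7 CPM in the lowest, 534 in the median and 644.6 in the highest normoxic library, and 620.8, 810 and 1251 CPM in hyperoxia. Only the lowest hyperoxic library, replicate 1, lay below the highest normoxic one. The means were 551 ± 52.9 CPM (SD, n = 7) and 847 ± 215 CPM (SD, n = 6), a log2 fold change of 0.62 (SE 0.15, 95% interval 0.29 to 0.95, edgeR adjusted p = 0.00885), or 1.54-fold. The exact permutation test gave p = 0.00117. The gene lies on the minus strand of chromosome 1 at 164437109 to 164458355, and its 3′ end shares 575 exonic bases with Nme7 on the opposite strand. Nme7 itself rose by 0.98 on the log2 scale (edgeR adjusted p = 0.0258), with 1290 CPM in hyperoxia replicate 1, and by 0.68 without that library (edgeR adjusted p = 0.0427). Whether strand entered the counting was not given in the sources used here, so that reads of the pair may not be separable there.

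Atp1b3, the beta 3 subunit of the same pump, stood at 162 to 208 CPM in normoxia with a median of 192, and at 99.7 to 170 CPM in hyperoxia with a median of 137. It fell by 0.46 on the log2 scale (edgeR adjusted p = 0.0195), and by 0.37 without hyperoxia replicate 1, which held the lowest level (adjusted p = 0.0226). The beta subunits of the pump therefore went in opposite directions in these libraries, each by its own test, and the difference between them was not tested.

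Aqp1 encodes the water channel of the lung microvessels, of red blood cells and of mesothelium. Its level was 8.64 CPM in the lowest, 12.5 in the median and 23.4 in the highest normoxic library, and 3.22, 6.34 and 8.69 CPM in hyperoxia. Only the lowest normoxic and the highest hyperoxic library overlapped. The counts behind these values were 21 to 67 in normoxia and 6 to 31 in hyperoxia. The means were 13.9 ± 5.12 CPM (SD, n = 7) and 6.02 ± 2.30 CPM (SD, n = 6), a log2 fold change of −1.18 (SE 0.30, 95% interval −1.82 to −0.54, edgeR adjusted p = 0.0104), or 2.26-fold lower. The exact permutation test gave p = 0.00175. The gene lies on the plus strand of chromosome 6 at 55336432 to 55348555, and no annotated gene overlaps it.

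Vessel markers were set beside Aqp1 in the same way. Of 14 endothelial markers 6 fell and 1 rose (edgeR), with a median log2 fold change of −0.74 and summed levels of 5205 to 7592 CPM in normoxia and 3370 to 6867 CPM in hyperoxia. Without hyperoxia replicate 1, 7 fell and 2 rose. Of the defining markers, Cdh5 did not pass in any fit that left out 1 library. Pecam1 passed only without hyperoxia replicate 5 (edgeR adjusted p = 0.0263), and Cldn5 only without hyperoxia replicate 1, which held 5.36 CPM of it (0.71, edgeR adjusted p = 0.0408). Relative to the mean log2 CPM of these markers Aqp1 differed by −0.43, which did not pass (exact permutation p = 0.0886, adjusted 0.133). Without normoxia replicate 6 the difference was −0.50 (exact permutation p = 0.0411, unadjusted). Of 7 markers of aerocytes, the capillary cells that face the airspace, 3 fell and 2 rose (4 fell and 2 rose without hyperoxia replicate 1), with sums of 440.1 to 576.5 and 427.8 to 571.7 CPM, and Aqp1 fell relative to them by 0.58 on the log2 scale (exact permutation p = 0.0128, adjusted 0.0307). That call was lost without hyperoxia replicate 5, where the difference was −0.40 (exact permutation p = 0.053, unadjusted). Of 4 tested red cell markers 1 fell, with a median sum of 1728 CPM in normoxia (193.7 to 3399) and 357 CPM in hyperoxia (169.1 to 2863). All but 1 normoxic sum, that of replicate 6, were at least 1445 CPM, and all but 1 hyperoxic sum, that of replicate 2, were at most 479.3 CPM. Without hyperoxia replicate 2, 3 of the 4 red cell markers fell, and their median log2 fold change went from −1.31 to −2.59. Of 4 tested mesothelial markers 2 fell, with sums of 101.2 to 199 and 57.3 to 126 CPM, of which the highest hyperoxic sum is that of replicate 1. Without that library 3 of 5 tested fell, Upk3b among them (edgeR adjusted p = 0.0121, against 0.217 with it). The part of red cells and mesothelium in the Aqp1 level was not tested.

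Aqp5 encodes the water channel of the apical membrane of type 1 cells. Its level was 30.95 CPM in the lowest, 46.0 in the median and 59.0 in the highest normoxic library, and 20.9, 46.6 and 63.9 CPM in hyperoxia. The means were 45.5 ± 9.83 CPM (SD, n = 7) and 44.6 ± 19.3 CPM (SD, n = 6). The hyperoxic libraries lay at both ends of the range, with replicates 1, 3 and 5 at 20.9, 28.5 and 32.5 CPM and replicates 2, 4 and 6 at 61.2, 60.6 and 63.9 CPM. The log2 fold change was −0.02 (SE 0.26, 95% interval −0.56 to 0.52, edgeR adjusted p = 0.973). The gene lies on the plus strand of chromosome 15 at 99590782 to 99594829. Relative to the type 1 markers Aqp5 differed by −0.13 (exact permutation p = 0.618), so that no difference from these markers was detected.

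Aqp4 encodes a water channel of the basolateral membrane of airway epithelium. It stood at 6.35 to 18.99 CPM in normoxia with a median of 10.8, and at 2.14 to 13.4 CPM in hyperoxia with a median of 8.81. The lowest value, 4 counts, was that of hyperoxia replicate 1, and the other 5 hyperoxic libraries lay within the normoxic range. The log2 fold change was −0.34 (SE 0.34, 95% interval −1.07 to 0.39, edgeR adjusted p = 0.523). The gene lies on the minus strand of chromosome 18 at 15389496 to 15410982, and an antisense gene overlaps it without sharing exonic bases.

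The water channels were also compared within libraries. The ratio of Aqp1 to Aqp5 fell by 1.01 on the log2 scale (exact permutation p = 0.00175, adjusted 0.0105). The ratio of Aqp1 to Aqp4 differed by −0.70 (exact permutation p = 0.121) and that of Aqp5 to Aqp4 by 0.31 (exact permutation p = 0.456), and neither passed. Of the other 9 aquaporin genes listed only Aqp7, a glycerol and water channel, and Aqp11, which lies in intracellular membranes, had enough counts to be tested, and 0 of the 2 changed (edgeR adjusted p = 0.985 and 0.125). Aqp3 had 76 counts over all 13 libraries, and Aqp9, a channel of leukocytes and liver, had 31.

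Slc12a2 encodes the cotransporter NKCC1, which brings sodium, potassium and chloride into the cell together and sustains chloride secretion. Its level was 68.0 CPM in the lowest, 87.4 in the median and 128.8 in the highest normoxic library, and 123.0, 154 and 187 CPM in hyperoxia. Only hyperoxia replicate 3, at 123.0 CPM, lay below the highest normoxic library. The means were 92.2 ± 22.5 CPM (SD, n = 7) and 154 ± 21.0 CPM (SD, n = 6), a log2 fold change of 0.74 (SE 0.16, 95% interval 0.39 to 1.09, edgeR adjusted p = 0.00415), or 1.67-fold. The exact permutation test gave p = 0.00175. The gene lies on the plus strand of chromosome 18 at 57878678 to 57946821, and no annotated gene overlaps it.

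Cftr encodes the chloride and bicarbonate channel of the apical membrane, whose loss causes cystic fibrosis. It stood at 5.38 to 13.1 CPM in normoxia with a median of 9.80, and at 5.21 to 16.1 CPM in hyperoxia with a median of 10.3, and the groups overlapped over most of their range. The log2 fold change was 0.20 (SE 0.29, 95% interval −0.41 to 0.81, edgeR adjusted p = 0.669). The gene spans 18170687 to 18322768 of chromosome 6, plus strand, and shares 129 exonic bases with the antisense gene Gm15592. The ratio of Cftr to Slc12a2 differed by −0.60 (exact permutation p = 0.0495), which did not pass after adjustment over the 12 ratios (0.0958). Ionocytes are the airway cells richest in Cftr. Their defining factor Foxi1 had 0 counts in all 13 libraries and Ascl3 had 4, and only 2 markers of 6 could be tested. Stap1 fell, and Atp6v0d2 rose without hyperoxia replicate 1. The sums of these 2 genes were 49.4 to 90.7 CPM in normoxia and 41.8 to 82.0 CPM in hyperoxia. With the defining factor at 0 counts, these sums are not read as a level of ionocytes.

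**Figure D4:**
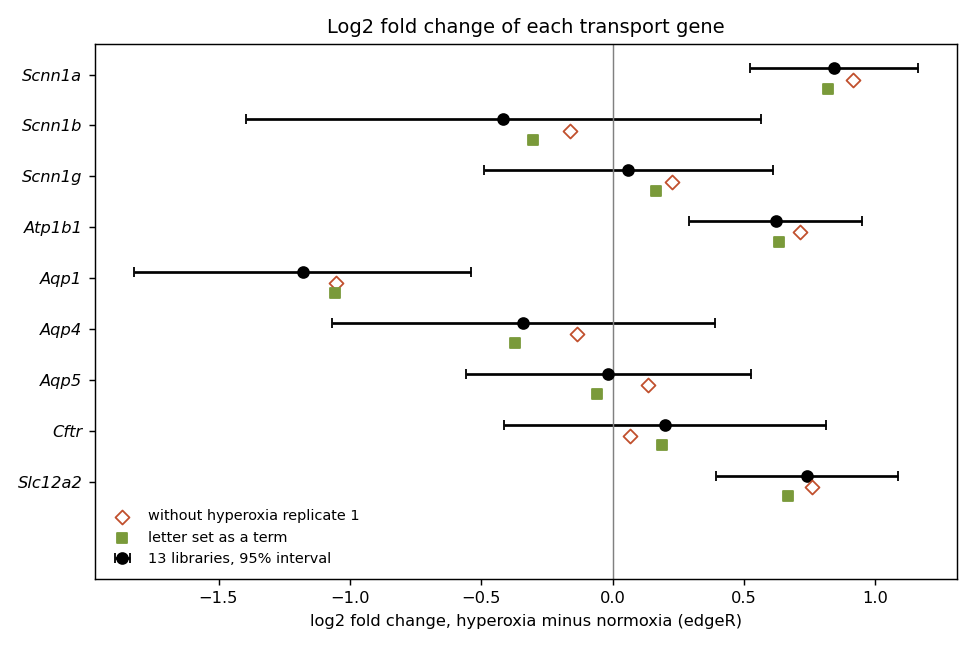
Log2 fold change of each of the 9 genes, hyperoxia minus normoxia, from edgeR over 7 normoxic and 6 hyperoxic libraries (black points, with the 95% interval as the line), without hyperoxia replicate 1 (open diamonds) and from a fit that includes the letter set (green squares). The intervals of Scnn1a, Atp1b1 and Slc12a2 lie above 0, that of Aqp1 lies below 0, and the other 5 cross it.

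The directions of the 4 genes that changed were the same within both letter sets. The differences in mean log2 CPM in letters B to M and O to S were 0.63 and 1.12 for Scnn1a, 0.69 and 0.45 for Atp1b1, 0.78 and 0.52 for Slc12a2 and −1.36 and −0.62 for Aqp1. The smallest exact permutation p these sets allow is 0.0179 and 0.1, so that O to S cannot pass on its own. Scnn1b went in opposite directions in the sets, at −1.96 and 0.52, of which the first includes hyperoxia replicate 1. Scnn1g (−0.19 and 0.37), Aqp5 (−0.49 and 0.36) and Cftr (0.43 and −0.33) did so as well, and Aqp4 was at −0.78 and −0.04.

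Of 29 genes that regulate these channels 27 were tested, and 2 rose and 3 fell (edgeR). Over all genes tested 11.8% rose and 10.8% fell. Without hyperoxia replicate 1, 4 of the regulators rose and 3 fell, where 1934 rose and 1699 fell of all 12752 genes tested. With each library left out in turn, 2 to 4 of the regulators rose and 1 to 3 fell. Their median log2 fold change was −0.15. Wnk1, a kinase that acts on sodium and chloride transporters including NKCC1, rose from 679 to 966 CPM to 1134 to 2186 CPM. The groups did not overlap, a separation upward that 5.6% of all genes tested showed. The log2 fold change of Wnk1 was 1.03 (SE 0.16, edgeR adjusted p = 0.000281). The immediate early factor Egr1 rose by 1.80 (adjusted p = 0.00806). Nr3c2, the mineralocorticoid receptor through which aldosterone raises sodium channel expression, fell by 1.58 on the log2 scale, from 5.56 to 11.9 CPM to 0.536 to 5.21 CPM (edgeR adjusted p = 0.00363). It had 234 counts over all 13 libraries, and its lowest value, in hyperoxia replicate 1, lies below the floor of 1.61 CPM there. Without that library the log2 fold change was −1.40 (edgeR adjusted p = 0.00229). Adrb1, the beta 1 adrenergic receptor, fell by 0.61 (adjusted p = 0.0482), and Pde4b, which breaks down the cyclic AMP that activates sodium absorption and CFTR, fell by 0.54 (adjusted p = 0.0264). These calls rest on the full set of libraries, since leaving out 1 library lost the Adrb1 call in 12 of 13 fits (adjusted p up to 0.147) and the Pde4b call in 11 of 13 (up to 0.0883), while Wnk1, Egr1 and Nr3c2 passed in all 13.

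Sgk1, Nedd4l and Prss8, regulators of the sodium channel, did not pass. Sgk1, the kinase that keeps the sodium channel at the membrane, was at 42.4 to 61.5 CPM in normoxia and 22.5 to 101 CPM in hyperoxia, with 0.67 as the log2 fold change (SE 0.26, edgeR adjusted p = 0.0733). Its lowest hyperoxic value was that of replicate 1, and without that library the log2 fold change was 0.87 (edgeR adjusted p = 0.000334). Nedd4l, the ubiquitin ligase that removes the channel from the membrane, was at 0.50 (adjusted p = 0.114), with its highest level, 317 CPM, in hyperoxia replicate 1. Without that library Nedd4l was at 0.25 (edgeR adjusted p = 0.233). Prss8, a protease that activates the channel, was at −0.41 (adjusted p = 0.335).

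Of 31 other genes of chloride and bicarbonate transport 20 were tested, and 2 rose and 3 fell (edgeR). Over all genes tested 11.8% rose and 10.8% fell. Without hyperoxia replicate 1, 3 genes of this list rose and 3 fell, where 1934 rose and 1699 fell of all 12752 genes tested. With each library left out in turn, 1 to 3 of the list rose and 2 to 4 fell. Its median log2 fold change was −0.20, and 0.0007 without hyperoxia replicate 1. Slc4a7, a sodium and bicarbonate cotransporter, rose by 0.59 (adjusted p = 0.00446), and Ano6, a calcium-activated scramblase and channel, rose by 0.42 (adjusted p = 0.0368), a call lost in 6 of the 13 fits that left out 1 library. Slc4a5, another sodium and bicarbonate cotransporter, fell by 1.74 on the log2 scale, from 37.9 to 47.6 CPM to 6.25 to 20.6 CPM (edgeR adjusted p = 4.06e-05), with every hyperoxic library below every normoxic one, as in 5.23% of all genes tested. Slc26a9, an epithelial chloride channel that interacts with CFTR, fell by 1.45 (adjusted p = 0.000817). Clca1, a secreted product of goblet cells, was at 0.349 to 857 CPM in normoxia with a median of 3.87, and at 0 to 22.5 CPM in hyperoxia with a median of 1.15. Its log2 fold change of −5.02 (edgeR adjusted p = 0.0352) went to −3.17 without normoxia replicate 3 (adjusted p = 0.124), and the call was lost in 6 of the 13 fits that left out 1 library.

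Of 17 potassium and other cation channels and purine receptors 9 were tested, and 2 rose and 2 fell (edgeR). For these 9 genes, −0.52 was the median log2 fold change. The shares over all genes tested were 11.8% higher and 10.8% lower. Without hyperoxia replicate 1, 3 rose and 2 fell of 10 tested, where 1934 rose and 1699 fell of all 12752 genes tested. With each library left out in turn, 1 to 3 of these genes rose and 2 to 3 fell. Whether these counts differ from the shares over all genes was not tested. P2ry2, the receptor through which ATP drives chloride secretion, rose from 6.87 to 20.2 CPM to 26.4 to 56.8 CPM. Its groups did not overlap, a separation upward that 5.6% of all genes tested showed. The log2 fold change of P2ry2 was 1.61 (SE 0.24, edgeR adjusted p = 0.000206). Kcnk1, a potassium leak channel, rose by 1.22 (adjusted p = 0.0449), a call lost in 8 of the 13 fits that left out 1 library. P2rx4, an ATP-gated cation channel found in alveolar epithelium and macrophages, fell by 0.52 (adjusted p = 0.00241), and Kcne2, a potassium channel subunit, fell by 1.18 (adjusted p = 0.0128). Of 6 pan-leukocyte markers 4 fell and 0 rose (2 to 4 fell with 1 library left out), with sums of 383.5 to 526.8 CPM in normoxia and 206 to 299.6 CPM in hyperoxia, and the part of leukocytes in the P2rx4 level was not tested.

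**Figure D5:**
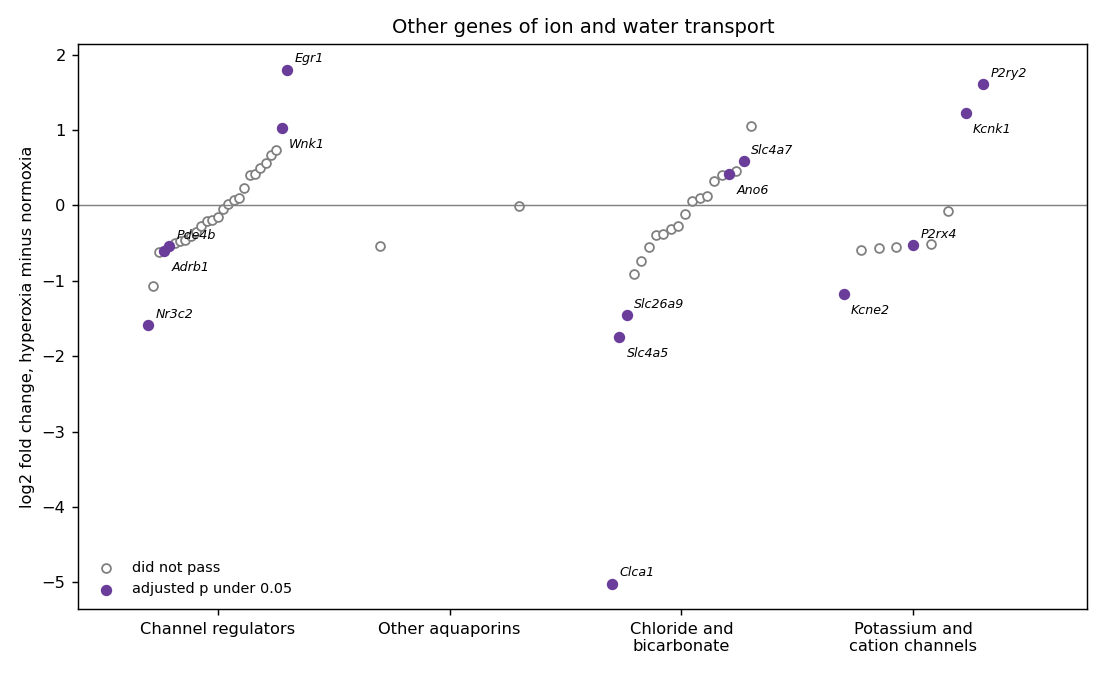
Log2 fold change, hyperoxia minus normoxia, of each tested gene in 4 lists of ion and water transport over 7 normoxic and 6 hyperoxic libraries, where filled points have an adjusted p under 0.05 and are named. Genes rose and fell within the regulators, the chloride and bicarbonate genes and the cation channels, and neither of the other aquaporins passed.

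The genes whose deviations were most like those of each of the other members are given as a description over 13 libraries, since these rankings were made over all genes tested. They were Retn (r = 0.822), Gamt and Pde4dip for Scnn1a, Klhl29 (0.946), Ppp2cb and Uros for Scnn1g, and Klhl2 (0.96), Tmem106b and Zranb1 for Atp1b1. For the water channels they were Smim4 (0.912), Lrrc59 and Coq6 with Aqp1, Prepl (0.931), Col5a2 and Emg1 with Aqp4, and Coro1c (0.97), Scpep1 and Mboat7 with Aqp5. For the chloride genes they were Gm17334 (0.903), Slc2a9 and Fitm2 with Cftr, and Gxylt1 (0.976), Clec2d and Angpt1 with Slc12a2. Of the 9 leading genes, Scgb1a1 for Scnn1b was the 1 that is also in a list of cell type markers.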

How the data were processed

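Lung RNA of 7 normoxic and 6 hyperoxic samples was read with a 3′ end kit (Lexogen QuantSeq V2) on a NovaSeq. The authors quantified reads with kallisto in BioJupies and deposited whole-number counts for each gene symbol, with no filter on low counts, and the submitters' processing notes name mm10 and limma 3.54.2. The authors also deposited log10 of CPM plus 1. Conditions and replicate numbers came from the sample labels, and 0 columns were left unmapped.

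Counts were scaled with TMM, filtered with filterByExpr (12496 of 32544 symbols kept) and tested with edgeR 4.0.16 (glmQLFit and glmQLFTest, R 4.3.3) over all 13 libraries without covariates, with Benjamini-Hochberg adjustment over all genes tested and a threshold of 0.05. The log2 CPM used a prior count of 2. Exact permutation tests were two-sided and covered 1716 splits, and were unadjusted for single genes. The code of the fit was run on counts simulated with known changes, which checks the code and not these data. The genes and lists were chosen with earlier results of these data known. The text names all 9 members, the called genes of each list with the smallest adjusted p, regulators chosen whatever they showed (Nedd4l, Sgk1 and Prss8), defining markers, and the 3 genes most like each member by Pearson r of deviations from the condition means. Other genes (Akap5, Lmo7, Aqp3, Aqp7, Aqp9, Aqp11, Nme7, Cog7, Sftpa1, Ccdc153, Plvap, Egfl7, Krt19, Krt7, Lgals3, Atp6v0d2 and Stap1) were named after their values were seen. Alternatives were DESeq2 1.42.0, limma-voom and limma 3.58.1 on the deposited log10 values, scaling by library size, no filter, a minimum of 10 counts in each library, a replicate block, a term for the letter set, values within each letter set, prior counts of 0.5 and 5, and leaving out each library in turn. Counts of each list and calls of its genes without single libraries, and the sum of the type 1 markers without those that rose, were added after seeing the data. Coordinates and overlaps came from GENCODE annotation of GRCm38 by symbol, and promoters from RefSeq. Some genes that these rules name, and results that rest on them, are not reported here.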

Additional observations from a re-analysis of the deposited data

Results flagged for a closer look

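In 2 of 18 groups of values (9 genes in 2 conditions) 1 library lay far from the rest of its group on the log2 CPM scale, where chance gives about 1 in 20. Both were the library of hyperoxia replicate 1. Scnn1b had 0 counts there, and the gap to the nearest hyperoxic library was 0.765 of the range of the group. Aqp4 had 4 counts, or 2.14 CPM, and a gap of 0.673 of the range. Neither gene passed the test with or without this library, and the cause was not tested.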

How the results depend on the processing

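Scnn1a, Slc12a2 and Aqp1 kept their direction and their side of the threshold in every fit that tested them, and Atp1b1 did so in all but 1. With the replicate number as a block, Atp1b1 was at 0.59 (edgeR adjusted p = 0.0668), and the genes called fell from 1473 higher and 1346 lower to 718 and 626. The labels give no meaning to shared numbers, and the deviations of same-numbered libraries correlated between −0.325 and 0.272. Whether the numbers pair the samples was not tested. With at least 10 counts in every library 6 members were tested, and 3 were higher and 0 lower, since Aqp1 was not tested.

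Genes near 0 changed sign. Scnn1g was at −0.018 with limma-voom, −0.12 with limma on the deposited log values, −0.012 with library size alone, −0.0039 with at least 10 counts in every library and −0.092 with the block, and Aqp5 was at 0.012 without a filter. In letters O to S alone Scnn1b was at 0.52, Scnn1g at 0.37, Aqp5 at 0.36 and Cftr at −0.33. Scnn1a kept its sign there and was larger, at 1.12. With each library left out in turn, Scnn1g ran from −0.055 to 0.23 in the fit and from −0.18 to 0.15 in the exact permutation test, Aqp5 from −0.14 to 0.13 and from −0.25 to 0.066, and the ratio of Aqp5 to the type 1 markers from −0.24 to 0.021. The ratio of Scnn1b to Scnn1g ran from −1.24 to −0.31, and it passed without hyperoxia replicate 6 (−1.24, exact permutation p = 0.0152, unadjusted). The ratio of Aqp1 to the endothelial markers ran from −0.50 to −0.24 and passed without normoxia replicate 6. The ratio of Cftr to Slc12a2 ran from −0.73 to −0.49. Calls over all genes ran from 1256 to 1934 higher and from 1049 to 1699 lower. The causes were not tested.

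Counts of Aqp1, Aqp4 and Cftr were 67 or fewer in every library, which limits what can be detected for these genes.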

Other observations

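The 9 genes were also compared with each other across libraries, as deviations of log2 CPM from the mean of each condition. Of the 36 pairs, 0 passed after Benjamini-Hochberg adjustment of permutation tests with 100000 resamples within conditions, and 6 had an unadjusted permutation p under 0.05. The largest value was that of Scnn1b with Aqp5, at r = 0.726 and Spearman's rho = 0.725 (n = 13, permutation p = 0.00481 and 0.00367, adjusted 0.0812 and 0.132), and r was 0.649 without the 2 libraries farthest from the median of Scnn1b and 0.572 without hyperoxia replicate 1. Scnn1g and Slc12a2 went in opposite directions, at r = −0.598 and rho = −0.604 (n = 13, permutation p = 0.00677 and 0.0127, adjusted 0.0812 and 0.212), and r was −0.757 without the 2 libraries farthest from the median of Scnn1g. These are values over libraries that share depth and composition.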
